A study of Triticum aestivum with 8 samples.

Results

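Leaves, roots and shoot apices of wheat seedlings shared 12430 regions of accessible chromatin in which the axillary bud list had no peak. They were selected by merging the 4 lists of ATAC-seq peaks wherever peaks overlapped by at least 1 bp, which gave 221805 regions, and keeping those with a leaf, a root and a shoot apex peak and no bud peak. The 12430 regions made up 5.60% of all merged regions (95% Wilson interval 5.51 to 5.70). A further 43661 regions had a peak in all 4 tissues. Of the 56091 regions shared by the 3 seedling tissues, 22.2% (21.8 to 22.5) therefore lacked a bud peak. The presence of the 4 tissues' peaks chose the regions, so these counts describe the choice and are not tested. Position along the chromosome and the order of regions did not enter the rule. Width did, since a wide region is more easily overlapped by a bud peak.

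The tissues came from hexaploid bread wheat (Triticum aestivum), cultivar AiKang58, with no transgene or mutant line named in the labels. Leaves, roots and shoot apices were taken from seedlings 2 weeks old. Days had 16 h of light, at 22 °C, and nights lasted 8 h, at 19 °C. The axillary buds, 1.0 to 2.0 cm long, were taken from plants 6 weeks old, which had also spent 30 days at 4 °C. Each tissue had 2 libraries but 1 peak list, so no value here carries a replicate error, and the sources used here do not say whether tissue of several plants was pooled. Tissue, age and cold differ together between buds and seedling tissues and cannot be told apart. The lists hold positions only, so peak height and depth are unknown, and a stretch without a bud peak is not shown to be closed in buds. Intervals cover counting error over regions only.

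ATAC-seq marks DNA that a transposase can reach, which in plants is mostly promoters, enhancers and other DNA held free of nucleosomes by bound proteins. Axillary buds form in the axils of leaves and grow into tillers, the side shoots of grasses, and each bud holds a shoot meristem with young leaves, as a shoot apex does. Prolonged cold is the signal that allows winter wheat to flower, a process known as vernalization. Wheat carries the related subgenomes A, B and D, so that each chromosome has a homoeologous partner in both other subgenomes. In wheat, genes are denser toward the chromosome ends, while the middle is rich in transposable elements and recombines little.

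The regions without a bud peak were simple and narrow. In 11318 of the 12430 (91.1%) each seedling tissue contributed exactly 1 peak, against 75.8% of the regions with peaks in all 4 tissues. Part of this lies in the rule, since bud peaks can join separate seedling peaks only in regions of all 4 tissues. Together the 12430 regions held 12986 leaf peaks (10.6% of the leaf list), 12796 root peaks (10.7%) and 12986 shoot apex peaks (9.84%). Their median width was 753 bp (quartiles 505 and 1143), and the narrowest measured 230 bp. Within them leaf and root peaks each covered a median of 500 bp and shoot apex peaks 496.5 bp. The stretch covered by all 3 tissues at once had a median of 304 bp (quartiles 246 and 425), or a median of 47.2% of the region. In 254 regions (2.04%) no base was covered in all 3, because peaks were linked through a neighbour.

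In the regions of all 4 tissues, seedling peaks covered a median of 1164 bp (quartiles 781 and 1818). The leaf, root and shoot apex medians there were 792, 700 and 950 bp, and the bud median was 925 bp. The stretch common to the 3 seedling tissues was 487 bp, but its share of the seedling-covered bases, 47.4%, was close to the 47.2% above. The regions without a bud peak were therefore narrower in each tissue, with about the same proportion in common. Seedling peaks covered at least 1000 bp in 32.2% of the regions without a bud peak and in 60.4% of those with one. At 2000 bp or more the shares were 6.39% and 21.2%, and at 4000 bp or more 0.475% (59 regions) and 4.36%. Width enters an overlap rule directly, since a wide region is more easily hit by a bud peak, and no peak height was there to compare at equal width.

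**Figure D1:**
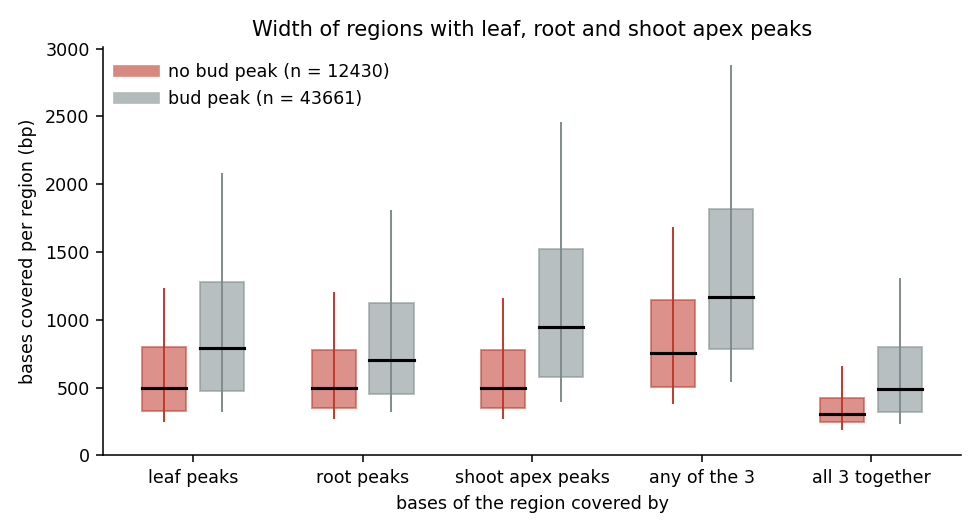
Bases covered per region by the peaks of each seedling tissue, by any of the 3 and by all 3 together, for regions without (n = 12430) and with (n = 43661) a bud peak; boxes span the quartiles, black lines are medians and thin lines run from the 10th to the 90th percentile. The medians for any of the 3 were 753 and 1164 bp, and the gap was widest for shoot apex peaks, 496.5 against 950 bp.

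The tissue with the widest peaks also differed. Root covered most bases in 34.4% of the regions without a bud peak (95% interval 33.6 to 35.2), shoot apex in 30.2% and leaf in 28.5%, with 6.92% tied. With a bud peak, shoot apex led in 50.6% (50.2 to 51.1), leaf in 23.7% and root in 20.6%. The shoot apex thus stood out in width where buds had a peak and not where they had none. These are single lists, and the difference has no replicate check.

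When the 56091 seedling-shared regions were split by the bases under seedling peaks into 5 classes of about equal size, the share without a bud peak fell at each step. It was 42.2% under 627 bp and 26.6% from there to 909 bp. The next classes gave 19.3% (910 to 1249 bp) and 14.3% (1250 to 1874 bp), and regions of 1875 bp or more gave 8.44%. The narrowest shared regions were thus those most often without a bud peak.

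The widest region lay on 7B from 292831126 to 292843175 (12050 bp), and 1 root peak spanned all of it. Its leaf and shoot apex peaks covered 525 and 350 bp and shared no base with each other. The next, on 3D from 489157329 to 489168178 (10850 bp), was covered over 10528 bp in shoot apex, 6350 bp in root and 875 bp in leaf. Its nearest bud peak was 204604 bp away. These 2 regions owed their width to 1 or 2 of the tissues rather than to all 3.

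The remaining 3 of the 5 widest were also uneven. On 2B from 11356501 to 11364756, leaf covered 8032 bp, shoot apex 7725 bp and root 2175 bp. On 2D from 577110792 to 577118766, leaf covered 7571 bp, shoot apex 7725 bp and root 1175 bp, and a bud peak began or ended 599 bp away. On 5D from 557053063 to 557061003, root covered the whole 7941 bp, leaf 2629 bp and shoot apex 225 bp. In each of the 5, the least covered tissue had 350, 875, 2175, 1175 and 225 bp, in the order given.

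Some regions were covered broadly by all 3 seedling tissues. On 6A from 548083309 to 548088458, leaf covered 3996 bp, root 5150 bp and shoot apex 4200 bp, with 3777 bp in common and the nearest bud peak 21497 bp away. The nearest other leaf, root and shoot apex peaks there were as far, at 21.7, 21.4 and 21.5 kb. For each list the distance was inside the quartiles of the 12430 regions. On 2B from 563043164 to 563047742, the 3 tissues had 2984 bp in common (3500, 4400 and 3500 bp), and the nearest bud peak was 173690 bp away, against 1.36 to 1.41 kb for the other seedling peaks. On 7A from 4624659 to 4629743, close to the chromosome end, 3183 bp were in common and the bud list resumed after 29737 bp, against 0.726 to 1.23 kb for the seedling lists. The last 2 regions thus had other seedling peaks much nearer than a bud peak. The bud distance on 2B was above the upper quartile of the 12430 regions (85654 bp), while that on 7A was inside the quartiles.

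The other members of this set lay nearer to a bud peak. On 3D from 522194329 to 522199564, 3294 bp were in common and the nearest bud peak was 4374 bp away. On 5D from 488860321 to 488865309, 2903 bp were in common and the distance was 3876 bp.

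Position along the chromosome set the regions apart from every other class they were compared with. Taking the outer 20% of the length at either end as distal, 48.4% of the regions without a bud peak were distal (95% interval 47.5 to 49.3). Of the regions of all 4 tissues, 62.3% were distal. Regions that lacked only one of the other tissues' peaks were more distal still, with 77.5% of 7888 regions lacking leaf alone, 64.1% of 11395 lacking root alone and 63.4% of 2559 lacking shoot apex alone. Regions missing only the bud peak were thus the least distal of the 5 classes.

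The differences were tested over the 7 homoeologous chromosome groups by flipping their signs in every combination (exact permutation, two-sided), which can give no p below 0.0156, with Benjamini-Hochberg adjustment over 4 tests. Against regions of all 4 tissues, the distal share was lower by a mean difference of -13.8 percentage points ± 1.48 (SD, n = 7 groups; groups from -15.3 to -11.1; exact p = 0.0156, adjusted p = 0.0156). Against regions lacking leaf alone the mean difference was -28.8 ± 3.0 points, against those lacking root alone -15.6 ± 2.67, and against those lacking shoot apex alone -14.7 ± 4.72, each below 0 in 7 of 7 groups (exact permutation test, adjusted p = 0.0156 for each). The spread behind these p-values is that between chromosomes in the same 4 lists; a chromosome is no replicate of a tissue.

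Seen from the other side, 18.1% of distal seedling-shared regions lacked a bud peak (17.7 to 18.5), against 28.1% of the others (27.5 to 28.6). The distal share was the lower one on 21 of 21 chromosomes, with differences from -13.3 to -6.81 points. The same quantity for leaf ran the opposite way: among regions with peaks in root, shoot apex and bud, 18.3% of distal and 9.73% of other regions lacked a leaf peak, higher in the distal part on 21 of 21 chromosomes. For root the values were 21.2% and 19.9% (higher in the distal part on 16 of 21), and for shoot apex 5.62% and 5.39% (12 of 21). A missing bud peak and a missing leaf peak were therefore distributed in opposite directions along the chromosome, while missing root and shoot apex peaks differed little between the 2 compartments.

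The change with distance from the end was graded. In the outermost 2.5% of the length 13.1% of seedling-shared regions lacked a bud peak, and from 2.5 to 5% it was 13.5%. The share was 19.1% at 5 to 10%, 21.9% at 10 to 20% and 26.2% at 20 to 30%. It reached 28.6% at 30 to 40% and 30.1% in the innermost class. Over the same 7 classes the share lacking leaf fell from 25.7% to 7.83%, that lacking root from 21.6% to 17.9%, and that lacking shoot apex stayed between 4.79% and 7.16%.

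**Figure D2:**
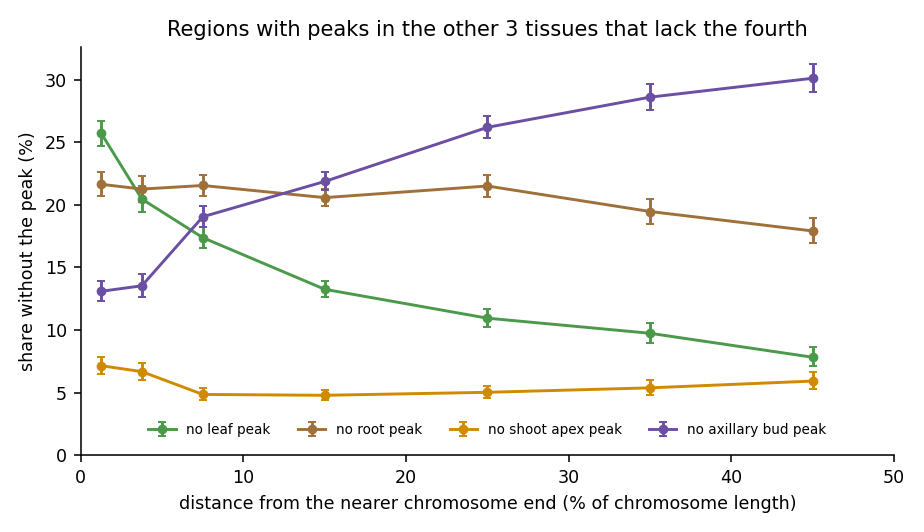
Share of regions with peaks in the other 3 tissues that lack the tissue named in the legend, by distance from the nearer chromosome end in percent of chromosome length, with points at class midpoints and bars for 95% Wilson intervals. The bud line climbs from 13.1 to 30.1% while the leaf line drops from 25.7 to 7.83%.

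The contrast between chromosome ends and middle was present in each class of width. In the narrowest class 36.1% of distal and 49.6% of other regions lacked a bud peak. In the widest class the values were 6.62% and 12.4%. The 3 classes between them gave 22.1% against 32.3%, 16.6% against 22.7% and 12.8% against 16.7%. From the narrowest class to the widest, the distal share was the lower one on 21, 21, 20, 16 and 20 of 21 chromosomes.

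**Figure D3:**
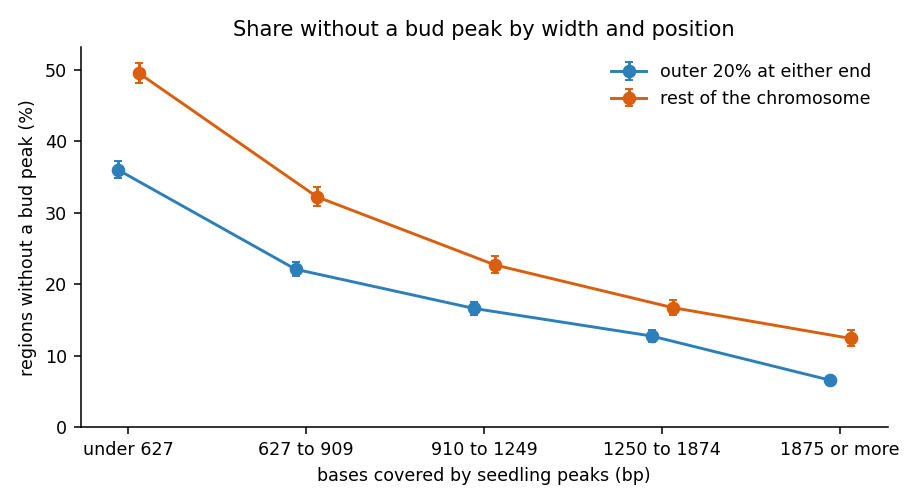
Share of seedling-shared regions without a bud peak in 5 classes of bases covered by seedling peaks (x axis, bp), for regions in the outer 20% at either chromosome end and in the rest, with 95% Wilson intervals. Both lines fall with width, from 36.1 to 6.62% and from 49.6 to 12.4%, and the distal line stays below the other in each class.

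The rise toward the middle was not even. With each chromosome cut into 20 bins of 5% of its length, most chromosomes showed a dip in the share without a bud peak inside the central part. The dip was found after the values were seen, so for each chromosome a segment of 2 bins was placed where its 2 homoeologues together had their lowest share between 20 and 80% of the length, and then measured on the chromosome itself. In these segments 554 of 2675 seedling-shared regions lacked a bud peak (20.7%, 95% interval 19.2 to 22.3), against 29.0% (28.4 to 29.7) in the rest of the central part. The segment was lower on 18 of 21 chromosomes. The exceptions were 3D (32.5% against 30.1%), 5B (29.7% against 26.5%) and 7B (35.7% against 28.1%). Homoeologues share their layout, so this agreement between them is not independent evidence, and no p is given.

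The segments lay between 25 and 55% of the length. On 20 of 21 chromosomes the lowest segment of the chromosome's own values also lay there, with shares of 8.54 to 20.2%, and on 1B it lay from 70 to 80% of the length. The range was read from the same chromosomes, so this is a description of where the dip lies. The positions of centromeres were not used here, and whether the segments hold them was not tested.

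All lists were sparser in the segments, the bud list least. The segments were placed for a low share without a bud peak in the homoeologues, which favours bud peaks, so these values are a description. Mean densities in the segments and in the rest of the central part were 3.87 ± 0.998 and 4.91 ± 1.14 bud peaks per Mb (SD, n = 21 chromosomes). For leaf they were 4.48 ± 1.07 and 6.49 ± 1.35, for root 3.28 ± 1.06 and 5.65 ± 1.33, and for shoot apex 3.84 ± 1.13 and 6.46 ± 1.36. The bud list was the denser in the segment on 3 chromosomes, and each of the other lists on 0. Regions with a bud peak alone made up 14.5% of the merged regions in the segments and 9.99% in the rest. Regions with a leaf peak alone (16.7% against 12.96%) and regions of all 4 tissues (21.9% against 19.6%) also had a larger share there, and those with a root peak alone (7.04% against 11.2%) or a shoot apex peak alone (8.00% against 9.79%) a smaller one.

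The dip was present in each class of width. From the narrowest class to the widest, 46.4, 24.3, 14.04, 8.72 and 7.23% of the segments' seedling-shared regions lacked a bud peak. In the rest of the central part the values were 49.9, 33.3, 24.1, 18 and 13%. In the narrowest class the intervals of the 2 shares overlapped (42.3 to 50.6 and 48.5 to 51.4). In the same segments 8.18% against 9.96% lacked leaf, 16.9% against 20.3% lacked root, and 6.73% against 5.19% lacked shoot apex, the last in the opposite direction. The segments were placed on the bud share and not on those of the other tissues, so the sizes of these contrasts are not compared.

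**Figure D4:**
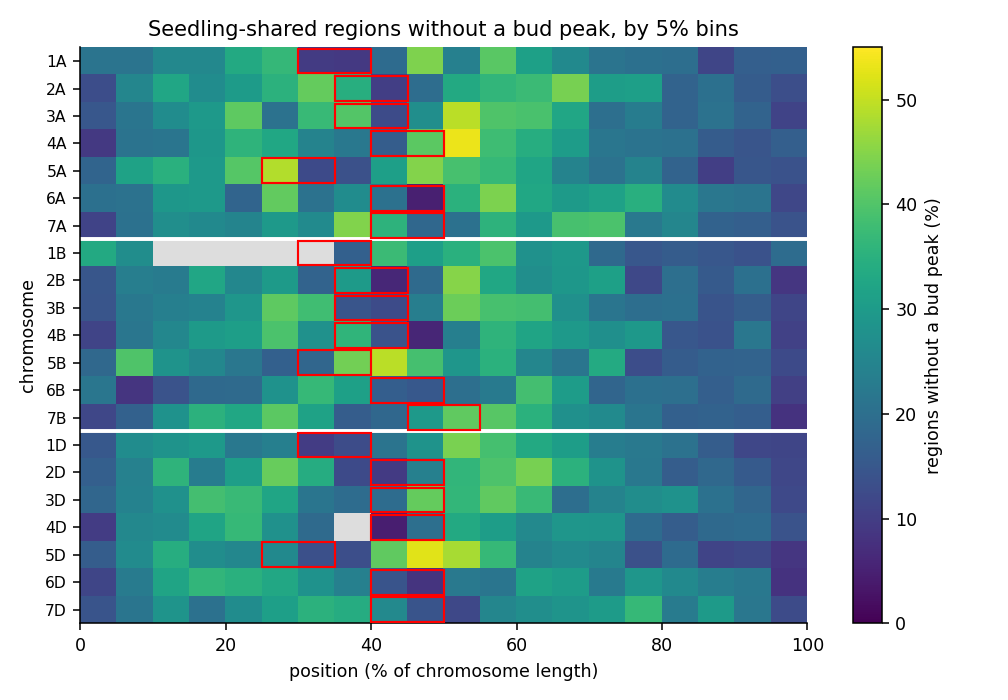
Share of seedling-shared regions without a bud peak in 20 bins of 5% along each of 21 chromosomes (rows, grouped by subgenome; x axis, position in percent of chromosome length; colour, percent); grey bins hold fewer than 20 such regions, and red frames mark the segment placed from the 2 homoeologous chromosomes. Chromosome ends are dark, the middle is light, and a darker patch lies at 25 to 55% of the length on most chromosomes.

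The start of 1B, with grey bins from 10 to 35% of the length, needs its own remark. The first 35% of 1B (241 Mb) held 323 leaf, 324 root, 253 shoot apex and 260 bud peaks. The same share of 1A held 1394, 1332, 1368 and 1205, and that of 1D 1483, 1467, 1466 and 1470. This first part of 1B was thus sparse in all 4 lists, and it held 92 seedling-shared regions, 31 of them without a bud peak. It was chosen after its values were seen, and why it was sparse was not tested.

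Most regions without a bud peak lay some kilobases from the nearest one. The distance to the nearest bud peak had a median of 12327.5 bp (quartiles 2706 and 85654). The value depended on the setting. Where presence needed cover of 50% of the region, the median was 3632 bp. That setting also admits regions with a bud peak over less of the region, so it is not a distance for regions without one. When narrower peaks (under 507 bp) were left out, the median was 26741 bp. In 12.3% of the regions a bud peak lay within 1 kb and in 47.1% within 10 kb, while 22.5% (2802 regions) were more than 100 kb from any bud peak and 66 more than 1 Mb. The nearest other leaf, root and shoot apex peaks lay at medians of 5376.5, 5384 and 5222.5 bp. Having no bud peak inside was the rule of choice, so the distance to the nearest bud peak outside it is given as a description.

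Around the regions of all 4 tissues, the nearest other bud peak lay at 3717 bp, close to the shoot apex value of 3381 bp and below the leaf and root values of 4561 and 5009 bp. The nearest other bud peak was therefore farther from regions that lacked a bud peak than from those with one. The bud list itself split these 2 kinds of region, and both hold peaks of each seedling tissue. Distances around regions lacking another tissue were not measured, so whether the contrast is particular to the bud was not tested. In the distal part the medians to a bud peak were 7012 bp without and 2616.5 bp with a bud peak in the region. In the rest of the chromosome they were 27268 and 7527 bp. For the seedling tissues the medians of the 2 kinds of region differed less, with 6668 against 6454 bp for leaf, 8488 against 8412 bp for root and 7373 against 5316 bp for shoot apex outside the distal part.

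**Figure D5:**
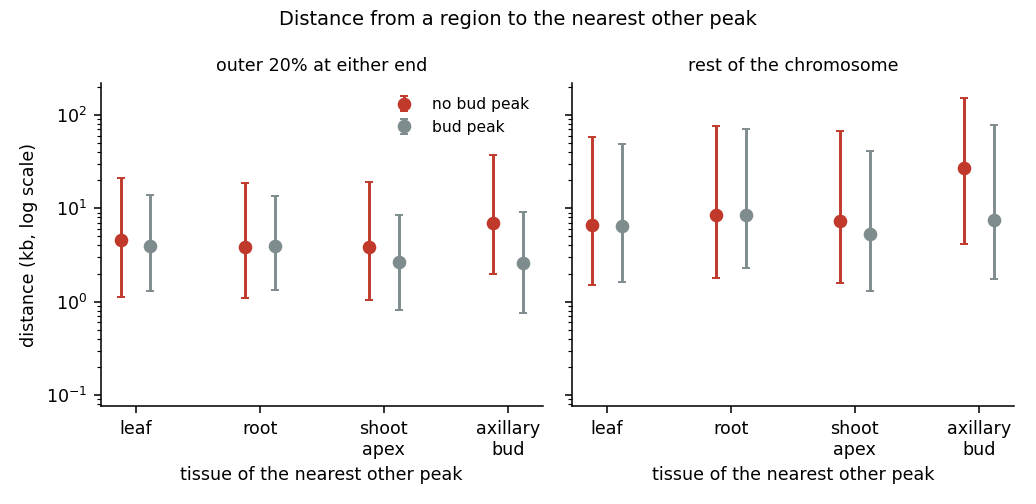
Distance from a region to the nearest other peak of each tissue (y axis, kb, log scale) for regions with leaf, root and shoot apex peaks, without and with a bud peak, in the outer 20% at either chromosome end (left) and the rest (right); points are medians and bars span the quartiles. The bud points separate most, 7012 against 2616.5 bp on the left and 27268 against 7527 bp on the right.

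Neighbouring regions repeated the contrast. The merged region closest to a region without a bud peak held a bud peak in 38.7% of cases (37.8 to 39.5), against 58.1% (57.6 to 58.5) beside a region of all 4 tissues. It was another region of leaf, root and shoot apex in 10.6% of cases against 5.11%, and a region of the bud alone in 8.99% against 15.3%. For reference, 51.7% of all merged regions held a bud peak, 5.60% were of leaf, root and shoot apex, and 14.3% were of the bud alone.

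The edge of the rule was thinly populated. A bud peak lay within 25 bp of 33 regions, 1 of which it touched, and their seedling peaks covered a median of 1075 bp. On the other side, 18 regions were counted among those of all 4 tissues on a bud overlap of at most 25 bp, with a median of 675 bp. Where a bud peak was present it overlapped a median of 796 bp, or 77.1% of the seedling-covered bases. Few regions thus owed their class to an overlap or a gap of a few bases.

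The regions farthest from any bud peak differed in how near other seedling peaks were. The farthest was on 1B from 77628227 to 77628852 (626 bp), 3026561 bp from a bud peak. The nearest other leaf peak was 86.6 kb, root peak 42.1 kb and shoot apex peak 3.03 Mb away. It lay in the part of 1B described above, as did those on 1B from 130643736 to 130644323 (2769023 bp from a bud peak) and from 104462595 to 104463125 (2635708 bp). The last of these had another root peak at 3.29 kb and another shoot apex peak at 3.21 kb. Both distances were below the medians of the 12430 regions but inside their quartiles. Its nearest other leaf peak was 795 kb away. On 2B the region from 285837623 to 285837934 was 2761841 bp from a bud peak. The fifth, on 6A from 245432132 to 245432481, was 2125581 bp away. Their nearest other seedling peaks lay 781 and 265 kb off. All 5 were narrow, at 312 to 626 bp.

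A seedling-shared region lacked a bud peak more often when the one before it lacked a bud peak too. Along the chromosome, the next seedling-shared region lacked a bud peak in 29.6% of cases after a region that lacked it (28.8 to 30.4), and in 20.04% after a region of all 4 tissues (19.7 to 20.4). The mean difference over the 7 homoeologous groups was 9.36 points ± 1.18 (SD; groups from 7.88 to 11.2), above 0 in 7 of 7, with a two-sided exact permutation p of 0.0156 by sign flips, the smallest possible. In the distal part the shares were 25.9% and 16.4%, and in the rest 33.1% and 26.1%. The difference was thus present in both compartments.

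It was largest for close neighbours. At a gap of up to 1 kb the shares were 42.1% and 14.7%, and from 1 to 10 kb 31.0% and 15.6%. From 10 to 100 kb they were 27.0% and 19.6%, and beyond 100 kb 28.9% and 23.2%. Runs of missing peaks were not special to the bud: after a region lacking root the next lacked root in 29.0% against 18.5%, for leaf in 21.5% against 14.2%, and for shoot apex in 10.04% against 5.27%.

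Of the 12430 regions, 6262 (50.4%) stood alone between seedling-shared regions with a bud peak, and 6168 (49.6%) fell into 2486 runs of 2 or more. There were 101 runs of 5 or more, with 4.56% of the regions, and the longest had 12. For comparison, the longest run lacking root alone had 13 regions, and those lacking leaf and shoot apex alone had 8 and 6. Run length also depends on how common such regions are, and these classes held 11395, 7888 and 2559 regions. The lengths are therefore a description and not a comparison of clustering.

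The longest run lay near the end of 1B, from 677120986 to 678255371 (1.13 Mb), with 12 regions of 600 to 2221 bp. Its span held 18 leaf, 31 root, 23 shoot apex and 8 bud peaks. Among its widest was the region from 678253151 to 678255371 (2221 bp), with 1899 bp of leaf, 725 bp of root and 2050 bp of shoot apex peaks. The region from 677620101 to 677621875 was covered over 1775 bp in leaf, 1750 bp in root and 650 bp in shoot apex. A bud peak came as near as 62 bp to 1 region of the run and no nearer than 45921 bp to another, so the span was not empty of bud peaks. The 12 regions themselves add to the seedling totals and not to the bud total, by the rule of choice. Outside them, 6 merged regions of the span had a leaf peak, 19 a root peak, 10 a shoot apex peak and 8 a bud peak.

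The most compact of the longest runs was on 7D from 4725482 to 4791196, 8 regions within 65.7 kb near the chromosome end. It held 8 leaf, 8 root and 9 shoot apex peaks and 1 bud peak, which was a region of its own of 550 bp. The regions were 583 to 1850 bp wide. On 7D from 4738068 to 4739591, leaf covered 1150 bp, root 1475 bp and shoot apex 357 bp. On 7D from 4788780 to 4790104, leaf covered 925 bp, root 1325 bp and shoot apex 1100 bp. The window of 1 Mb around this run was not poor in bud peaks, with 105 beside 81 leaf, 75 root and 114 shoot apex peaks.

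The other long runs lay in the middle of chromosomes and stretched farther. On 2A, 9 regions spanned 10.5 Mb from 240811528 to 251315740, with 16 leaf, 10 root, 11 shoot apex and 5 bud peaks. On 2B, 9 regions spanned 1.57 Mb from 409569484 to 411144383, with 10 leaf, 12 root, 16 shoot apex and 1 bud peak. Runs of 8 regions lay on 2A from 418808942 to 419449043 (1 bud peak), on 3A from 382115811 to 384183605 (5 bud peaks) and on 4B from 189013307 to 191234012 (3 bud peaks). The regions of a run add peaks to each seedling list and none to the bud list by the rule of choice, so nothing is read from the totals of these spans.

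Windows of 1 Mb showed where the regions without a bud peak were most numerous. Such counts also depend on the number of seedling-shared regions, and an excess over the overall share was not tested. A region without a bud peak occurred in 7091 of the 12015 windows with a seedling-shared region, and 210 windows held 5 or more (1216 regions in all). The window with most was on 6B from 18000001 to 19000000, where 15 of 30 seedling-shared regions lacked a bud peak. It held 51 leaf, 47 root, 54 shoot apex and 28 bud peaks. Its widest was the region from 18645353 to 18649277 (3925 bp; leaf 3475 bp, root 516 bp, shoot apex 2900 bp), 1541 bp from a bud peak. Next to it, from 18652946 to 18655145, leaf covered the whole 2200 bp, shoot apex 2000 bp and root 800 bp.

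The next windows held 10 each. They were on 6B from 676000001 to 677000000 (10 of 16 seedling-shared regions), on 7A from 686000001 to 687000000 (10 of 22) and on 3A from 12000001 to 13000000 (10 of 35). They held 17, 30 and 80 bud peaks in that order, and the 3A window had 60 leaf, 64 root and 78 shoot apex peaks beside its 80. Such windows were picked for regions that lack a bud peak, so their totals are a description. The 7 windows with 9 such regions lay on 1D, 3D, 5A and 7D, at 39.1 to 60% of the seedling-shared regions, apart from the 7D window of the compact run (24.3%).

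The 3 subgenomes held similar numbers. Subgenome A had 4374 of the regions without a bud peak (35.2%), B 3859 (31.0%) and D 4197 (33.8%). Per Mb this was 0.884 ± 0.0933, 0.742 ± 0.100 and 1.06 ± 0.125 (SD, n = 7 chromosomes each), from 0.606 on 1B to 1.23 on 3D. The share of seedling-shared regions without a bud peak was 22.6 ± 0.863% in A, 21.4 ± 1.39% in B and 22.3 ± 1.56% in D. None of the 3 differences passed the same exact permutation test over the 7 groups, with 1.2 points for A minus B (adjusted p = 0.328), 0.325 for A minus D (adjusted p = 0.547) and -0.877 for B minus D (adjusted p = 0.445). These differences depended on the setting. Where a tissue counted as present only with 50% of the region covered, A minus B (1.97 points) and B minus D (-3.26) passed the exact permutation test (adjusted p = 0.0469 each). A minus D changed sign under 3 alternatives, from 0.325 to between -1.29 and -0.170 points.

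Among the A chromosomes 7A had the highest share (23.4%) and 1A the lowest (21.4%). Among the D chromosomes the extremes were 3D (24.9%) and 4D (20.5%), and among the B chromosomes 5B (22.7%) and 6B (18.4%). Median width was 750 bp in A, 725 bp in B and 788 bp in D. The median distance to a bud peak was 15792.5, 13061 and 9556 bp, and 49.2, 46.1 and 49.7% of the regions were distal. In each subgenome this was below the distal share of its regions of all 4 tissues, which was 63.7, 60.3 and 62.9%.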

How the data were processed

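ATAC-seq peaks of 4 tissues were used, 1 list per tissue for 2 libraries each (8 in all). The tools were Trimmomatic 0.36, Bowtie2, bedtools and MACS2, per the submitters' processing notes. The sources used here give neither the genome build nor the peak threshold, nor how replicates were joined. The deposited lists hold chromosome, start and end of 119387 to 131949 peaks and no score. The narrowest peak was 201 bp wide. Whole multiples of 25 bp made up 82.1% of widths in the bud list, 89.3% in leaf, 95.5% in shoot apex and 95.7% in root. Widths are thus coarse, and the bud list had the lowest share. Whether it was processed differently is not known. The depth is unknown. Starts were taken as counted from 0 and are printed from 1.

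Computed here, with Python 3.11.15, numpy 2.4.6, pandas 2.3.3, scipy 1.17.1 and matplotlib 3.10.9: merged regions (overlap of at least 1 bp), their width as bases covered, gaps, runs and windows of 1 Mb by midpoint. Chromosome length was the end of the last peak. The exact sign-flip test used 128 sign patterns over 7 homoeologous groups, with Benjamini-Hochberg families of 4 position, 3 subgenome and 1 neighbour tests and a threshold of 0.05, and was tested on simulated lists. No comparison gave a call per region. The regions named by position were the 5 widest, the 5 with most bases common to the seedling tissues, the 5 farthest from a bud peak, the 5 longest runs and the 5 windows with most regions (both with ties), and the extreme chromosomes; single regions inside runs and windows, the central segments and the first part of 1B were chosen after their values were seen. The choice of regions, lists and tests was made with earlier results of these data known. No genome or annotation of the build of the peaks was used, so no gene is named and no sequence shown.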

Additional observations from a re-analysis of the deposited data

Results flagged for a closer look

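Chromosome 6B stood apart from the other B chromosomes. There 18.4% of seedling-shared regions lacked a bud peak, against 21.3 to 22.7% on the other 6, a gap of 0.675 of the whole range by Dixon's test. It was the only one beyond the critical value among 30 extremes checked (the lowest and highest of 7 chromosomes for 5 quantities in 3 subgenomes), and chance flags about 1 in 20 sets. Between 5 and 10% of the length of 6B, 20 of 238 such regions (8.40%) lacked a bud peak, against 20.7% on 6A and 22.8% on 6D; this bin was chosen after its values were seen. It held 674 bud peaks beside 464 leaf, 573 root and 574 shoot apex peaks. From 0 to 5% of the length the order differed, with 21.5% on 6B, 20.3% on 6A and 11.4% on 6D. That part of 6D held 836 bud peaks beside 570 leaf, 595 root and 674 shoot apex peaks, so such a bin was not particular to 6B. Over the whole of 6B the bud list had 6451 peaks, more than leaf (5870), root (5515) or shoot apex (6083). Whether the density of the bud list there bears on the low share was not tested.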

How the results depend on the processing

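The position tests and the neighbour test kept direction and significance under each alternative run: the distal share against regions of all 4 tissues ranged from -14.3 to -10.4 points and the neighbour difference from 6.09 to 10.4 points. Leaving out each homoeologous group gave -14.2 to -13.5 (all 4 tissues), -29.4 to -28.2 (lacking leaf), -16.4 to -15.1 (lacking root), -16.1 to -13.7 (lacking shoot apex) and 9.06 to 9.61 (neighbours), each with adjusted p = 0.0312 in the exact permutation test, the smallest for 6 groups, and 0.590 to 1.47, 0.120 to 0.709 and -1.32 to -0.470 points for A minus B, A minus D and B minus D. With peaks of at least 507 bp alone, 4875 regions lacked a bud peak (19.9% of the seedling-shared ones), with a median width of 1264 bp and a distance of 26741 bp. With presence defined as cover of 50% of the region, the share was 37.5%, the width 707 bp and the distance 3632 bp. That setting also admits regions with a bud peak over less of the region. Lists cut to 119387 peaks gave 21.5% and 783 bp, and counting a bud peak within 500 bp as present gave 20.8%. The subgenome differences depended on the setting. A minus D reversed to -0.170 (peaks of at least 507 bp), -1.29 (50% coverage) and -0.777 points (within width classes), and with 50% coverage A minus B (1.97) and B minus D (-3.26) passed the exact permutation test (adjusted p = 0.0469 each); the cause was not tested. Merging the seedling lists without the bud list was added after seeing the data. It could not change the 12430 regions, which hold no bud peak to take out, so their number is no check. The seedling-shared regions could change and numbered 56551, of which 22.0% lacked a bud peak. The central segments, also examined after seeing the data, were lower by 7.48 to 9.96 points under 7 alternatives, on 15 to 19 of 21 chromosomes. No paired analysis was possible because each tissue has 1 list for both libraries; for the same reason no replicate could be left out. Unknown depth limits each absence: a weak bud signal under the authors' peak threshold would count as no peak.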
